A study of Homo sapiens with 3 samples.

Results

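The Hippo pathway genes described here are 10 genes, namely the coactivators YAP1 and WWTR1 (which encodes TAZ), the transcription factors TEAD1, TEAD2, TEAD3 and TEAD4, and the kinases LATS1, LATS2, STK3 (MST2) and STK4 (MST1). They were taken by name from a published pathway, without use of their measured values, though earlier results of these data were known. The genes were matched by Ensembl identifier among the 58051 genes with counts, and all 10 were found. The libraries were made from total RNA of H9, an established human embryonic stem cell line that was wild type, untreated and grown without feeder cells on Vitronectin in Essential 8 Flex medium, with ribosomal RNA depleted. The 1 group holds 3 replicates, with 10390984, 12024802 and 8655155 reads counted on genes. Nothing states that they were separate cultures, so the spread between them may be technical, and with 1 condition there is no comparison of groups. Levels are given in TPM, for which the reads of a gene are divided by the summed length of its exons and scaled to a fixed total per library, and each ± is the SD over the 3 replicates.

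The Hippo pathway is a chain of kinases that limits tissue growth. MST kinases phosphorylate LATS kinases, and LATS kinases phosphorylate YAP and TAZ, which are then held in the cytoplasm or degraded. Unphosphorylated YAP and TAZ enter the nucleus and act through TEAD proteins, which bind DNA themselves but need a coactivator to switch genes on. The pathway responds to cell density, polarity and the stiffness of the matrix, and in the early embryo it helps to separate trophectoderm from the inner cell mass. Pluripotent stem cells are known to depend on YAP and TEAD activity, which transcript counts do not measure, since control of the pathway acts largely on phosphorylation and location of the proteins.

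All 10 genes were transcribed in H9 cells, and their mean levels spanned from 6.13 TPM for STK3 to 279 TPM for TEAD2. All 10 were at or above 1 TPM in every replicate, as were 65.1% of the 19629 protein-coding genes. Of the 10, 6 were in the high class, which follows the study's scheme. It is the upper of 3 quantiles, taken here over protein-coding genes at or above 0.01 TPM. This class holds 28.8% of all protein-coding genes. The median of the 10 mean levels was 35.0 TPM, against 7.10 TPM over all protein-coding genes. The high class began at 26.96 TPM. LATS1, at 26.99 TPM, was the member just inside this boundary, and STK4, at 24.3 TPM, was the member just outside it. LATS1 fell below the boundary when replicate 1 or replicate 2 was left out, which made 5 genes of the high class.

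**Figure D1:**
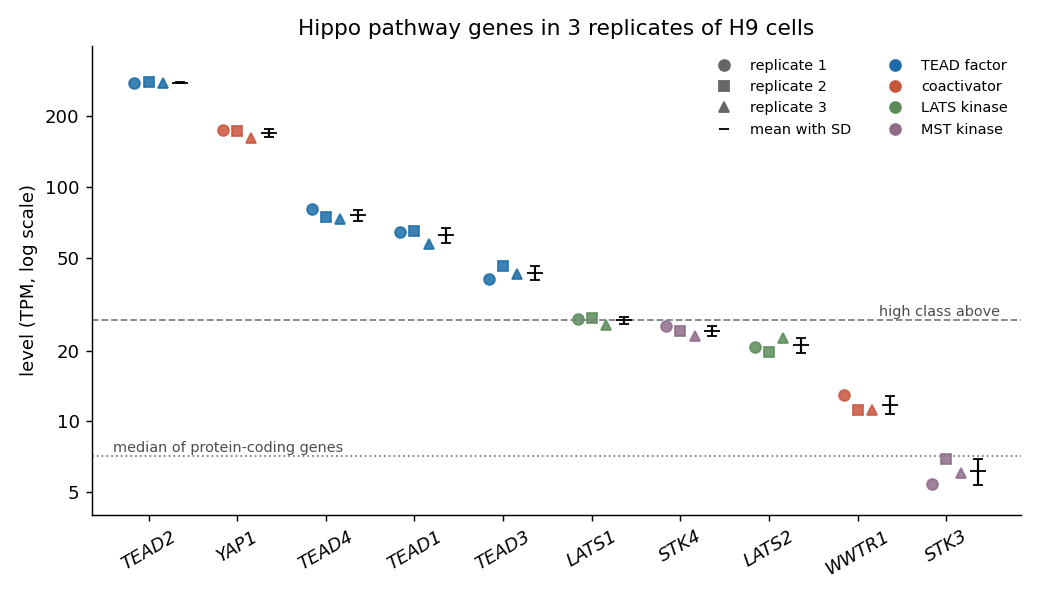
TPM of the 10 genes in each of 3 replicates on a log scale, with the mean and SD in black, the lower boundary of the high class (dashed) and the median of protein-coding genes (dotted). TEAD2 and YAP1 stood above the other 8 genes in every replicate, and STK3 was the only gene with a mean below the median of protein-coding genes.

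The TEAD genes encode the DNA-binding factors of the pathway, which share a TEA domain and a domain that receives YAP or TAZ. TEAD2 (ENSG00000074219, chromosome 19, 49340595 to 49362457, minus strand, GRCh38) had 2162, 2529 and 1833 reads, which is 279, 280.4 and 277 TPM. The replicates hardly differed, and 97.7% of protein-coding genes were below their mean of 279 ± 1.65 TPM (n = 3). TEAD4 (ENSG00000197905, chromosome 12, 2959330 to 3040676, plus strand), known for its part in trophectoderm formation, had 80.5, 74.2 and 73.1 TPM, from 477, 511 and 369 reads. TEAD1 (ENSG00000187079, chromosome 11, 12674421 to 12944737, plus strand), a broadly expressed member of the family, had 64.4, 65.01 and 57.1 TPM, from 1793, 2105 and 1355 reads. TEAD3 (ENSG00000007866, chromosome 6, 35473597 to 35497079, minus strand) was the lowest of the family, with 40.6, 46.1 and 42.6 TPM from 322, 425 and 288 reads. The order TEAD2, TEAD4, TEAD1, TEAD3 was the same in every replicate, and the means of neighbors in it differed by more than the larger SD. Its closest neighbors were TEAD4 and TEAD1, at 75.9 ± 4.02 and 62.1 ± 4.42 TPM (n = 3). In reads alone, TEAD1 was far ahead of TEAD4, with 5253 against 1357 over the replicates, and its exons are longer, at 10700 against 2275 bp.

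TEAD2 alone made up 60.6 ± 0.860% of the summed TPM of the family (n = 3). TEAD4 contributed 16.5 ± 0.744%, TEAD1 13.5 ± 0.711% and TEAD3 9.36 ± 0.581%. In CPM, reads scaled to the library total without division by length, the shares were 46.2% for TEAD2, 36.9% for TEAD1, 9.602% for TEAD4 and 7.30% for TEAD3, so that TEAD1 and TEAD4 changed places. The TEAD2 share was 60.0%, 60.2% and 61.6% in replicates 1, 2 and 3, so it was the most abundant TEAD transcript in each library. TEAD2 exceeded TEAD1 by 4.33, 4.31 and 4.86 fold in replicates 1, 2 and 3, while the counting error of the pooled reads alone gave a 95% exact binomial interval from 4.30 to 4.63 around a pooled ratio of 4.46. Such intervals leave out all error other than that of counting, as copies made by PCR are counted as if each were a molecule of its own.

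The paralogs are similar in sequence, and reads that fit more than 1 of them could have been dropped or misplaced in counting. The longest identical stretches between the canonical transcripts of TEAD3 and TEAD4, and of TEAD1 and TEAD4, are shown as examples. They set no limit on how far reads could be shared, since only exact matches were searched. Capitals mark the identical bases, and lower case the 12 bases on either side in each gene. All of them are coding.
TEAD3, chr6:35475138-35475395, minus strand, spliced over 2 exons: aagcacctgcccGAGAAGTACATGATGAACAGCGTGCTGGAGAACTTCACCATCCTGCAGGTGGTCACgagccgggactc
TEAD4, chr12:3040200-3040384, plus strand, spliced over 2 exons: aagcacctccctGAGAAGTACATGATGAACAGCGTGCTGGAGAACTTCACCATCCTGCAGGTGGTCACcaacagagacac
TEAD1, chr11:12930231-12930280, plus strand: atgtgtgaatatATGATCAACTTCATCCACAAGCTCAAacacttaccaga
TEAD4, chr12:3040164-3040213, plus strand: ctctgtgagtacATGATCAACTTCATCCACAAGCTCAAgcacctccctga
TEAD3 and TEAD4 share 56 bases in a row, TEAD2 and TEAD3 share 32, TEAD1 and TEAD4 share 26, and the other TEAD pairs share from 14 to 23. Of all windows of 50 bases, 0.238% in TEAD3 and 0.421% in TEAD4 occurred in a transcript of the other gene, and no such window of TEAD1 was found in the transcript of another gene in GENCODE release 44. In TEAD2, 10.7% of windows of 50 bases occurred in the transcript of another gene, none of them in a gene elsewhere in the genome. The neighboring gene CD37, on the opposite strand, overlaps 319 bp of TEAD2 exons, of which 266 bp are in the 3′ UTR and 53 bp in the coding part of the canonical transcript. This gene, which encodes a tetraspanin known from leukocytes, had 1334 reads over the replicates, or 41.0 ± 1.17 TPM (n = 3), 20.4% of the number on TEAD2. Whether reads of 1 gene were counted on the other was not tested, as the strand setting of the counting is not given in the sources used here.

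**Figure D2:**
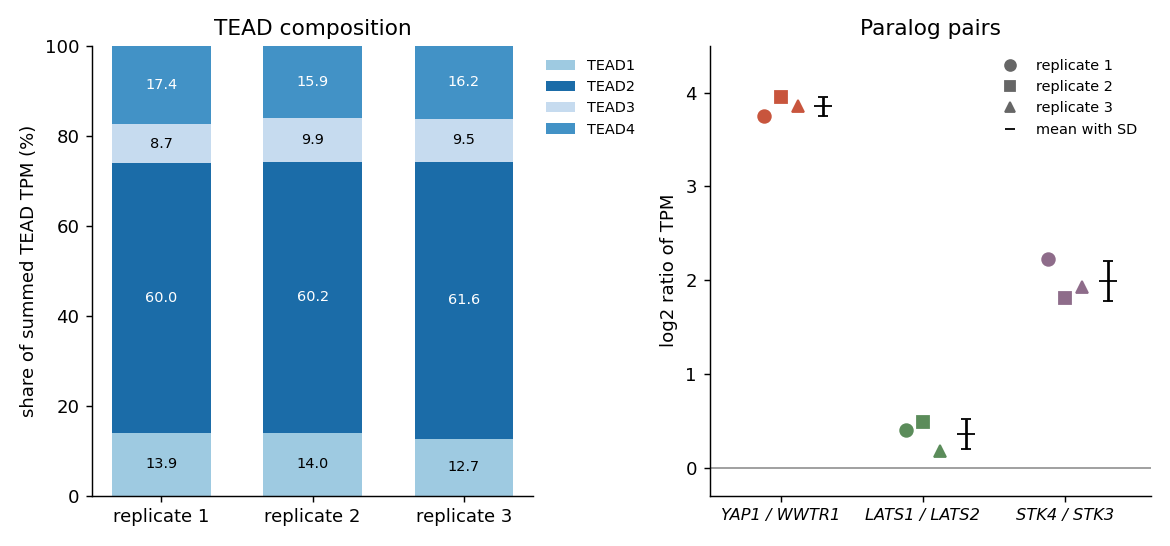
Left, share of each TEAD gene in the summed TPM of the 4 genes, in percent, for each replicate; right, log2 ratio of TPM within 3 paralog pairs for each replicate, with mean and SD in black and equal levels at 0. TEAD2 took 60.0% to 61.6% of TEAD TPM, and each of the 3 ratios was above 0 in every replicate.

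YAP1 and WWTR1 encode the paired coactivators on which the kinases act, and their transcripts differed widely in level. YAP1 (ENSG00000137693, chromosome 11, 102110447 to 102233424, plus strand) had 2868, 3310 and 2266 reads, which is 175, 173 and 162 TPM. WWTR1 (ENSG00000018408, chromosome 3, 149517235 to 149736714, minus strand) had 282, 282 and 207 reads, which is 13.0, 11.2 and 11.2 TPM. The values of the genes did not overlap, and both were lower in replicate 3 than in replicate 1. YAP1 exceeded WWTR1 by 14.5 ± 1.037 fold (n = 3), and by 13.5, 15.5 and 14.5 fold in replicates 1, 2 and 3. The pooled reads, with all exons as the length, gave a 95% exact binomial interval from 13.5 to 15.6 fold. The choice of length is not part of this interval. As a ratio of mean levels, 14.4 fold became 10.2 fold with the longest or the canonical transcript and 10.9 fold in CPM. An exact sign-flip test over 3 replicates cannot give a two-sided p below 0.25, so no test was run on this or the other ratios. Of protein-coding genes, 95.8% were below the mean of YAP1 and 56.9% were below that of WWTR1.

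The longest stretch that YAP1 and WWTR1 have in common lies at an exon junction of the coding part in both genes, and at 21 bases it is short. It is printed with the same marking, to show what the transcripts of the coactivators have in common.
YAP1, chr11:102227550-102229714, plus strand, spliced over 2 exons: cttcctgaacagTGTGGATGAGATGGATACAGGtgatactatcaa
WWTR1, chr3:149520977-149526044, minus strand, spliced over 2 exons: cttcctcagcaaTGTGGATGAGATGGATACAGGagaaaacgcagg
No window of 30 bases was shared between them. In YAP1, 2.87% of windows of 30 bases and 0.542% of windows of 50 bases occurred in the transcript of a gene elsewhere in the genome, most of them in the pseudogene YAP1P1. A larger overlap was with the antisense lncRNA gene ENSG00000254422 (chromosome 11, 102229851 to 102230922), whose exons lie wholly within those of YAP1, 541 bp in the 3′ UTR and 87 bp in the coding part. It had 506, 558 and 366 reads, which is 310, 294 and 263 TPM and a mean of 289 ± 23.9 TPM (n = 3). Per kb of exon this was 1.70 times the reads of YAP1 itself, and as a number of reads it was 16.9% of those on YAP1. In WWTR1, 9.05% of the exon length is overlapped by WWTR1-AS1, which had 69 reads in all. The values of the lncRNA gene in YAP1 were highest in replicate 1 and lowest in replicate 3, as were those of YAP1. All reads of opposite-strand neighbors were also added to each gene, an alternative chosen after seeing the data. The level of YAP1 was then 199 TPM, that of TEAD2 336 TPM and that of WWTR1 12.8 TPM, and the order of the 10 genes was kept. Only 7.67% of the exon length of CD37 overlaps TEAD2, and 28.8% of that of WWTR1-AS1 overlaps WWTR1. The lncRNA gene in YAP1 lies wholly within its exons. Reads were only added, so counts that already held reads of the opposite strand were not covered. These values are alternatives and neither limits nor corrected levels.

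The summed level of TEAD transcripts was above that of coactivator transcripts in every replicate. Together, TEAD1 to TEAD4 had 460 ± 8.77 TPM (n = 3), and YAP1 with WWTR1 had 182 ± 7.70 TPM. The ratio of these sums was 2.48, 2.52 and 2.601 in replicates 1, 2 and 3. Without TEAD2, the other 3 TEAD genes had 181 ± 7.33 TPM between them, and the difference from the coactivators was smaller than either SD.

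LATS1 and LATS2 encode the kinases that phosphorylate YAP and TAZ directly. LATS1 (ENSG00000131023, chromosome 6, 149658153 to 149718105, minus strand) had 27.4, 27.7 and 25.8 TPM, from 606, 712 and 487 reads. LATS2 (ENSG00000150457, chromosome 13, 20973036 to 21061586, minus strand), which is itself a transcriptional target of YAP, had 20.7, 19.8 and 22.8 TPM, from 303, 336 and 284 reads. LATS1 was the higher of both in each replicate, by 1.32, 1.401 and 1.13 fold. This was the smallest of the 3 paralog ratios, with a log2 ratio of 0.36 ± 0.16 (n = 3). Their longest common stretch has 20 bases, and both genes are shown since it is in the coding part of each.
LATS1, chr6:149680339-149680382, minus strand: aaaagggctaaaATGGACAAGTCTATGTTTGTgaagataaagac
LATS2, chr13:20983688-20983731, minus strand: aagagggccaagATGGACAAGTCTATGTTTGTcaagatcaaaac
No window of 30 bases of LATS2 occurred in another gene. In LATS1, 2.82% of windows of 50 bases did, of which 2 windows were in a gene elsewhere. The lncRNA gene ENSG00000278899 overlaps its 5′ end on the opposite strand and had 8 reads in all.

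The levels of YAP1 and of every TEAD gene lay above those of LATS1 and LATS2 in each replicate, while WWTR1 lay below both. LATS1 and LATS2 summed to 48.1 ± 0.576 TPM (n = 3).

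STK4 and STK3 encode the MST kinases, human counterparts of the fly kinase Hippo that gave the pathway its name. STK4 (ENSG00000101109, chromosome 20, 44966494 to 45080021, plus strand) had 25.5, 24.3 and 23.1 TPM, from 1098, 1219 and 848 reads. STK3 (ENSG00000104375, chromosome 8, 98371228 to 98942827, minus strand) was the lowest member, with 5.43, 6.92 and 6.04 TPM from 178, 264 and 169 reads. STK4 exceeded STK3 by 4.69, 3.51 and 3.82 fold, a mean of 4.007 ± 0.613 fold (n = 3). Both kinases together had 30.4 ± 1.14 TPM, less than LATS1 and LATS2 together in every replicate, an order that turned with the length used, as given next. Their longest common stretch has 23 bases. In STK4, 1.68% of windows of 50 bases occurred in the transcript of a gene elsewhere, and in STK3 none did.

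The place of the MST kinases depended on the length by which reads were divided. STK4 has 17 annotated transcripts and 16570 bp of exons in all, but a canonical transcript of 6366 bp. STK3 has 20 transcripts and 12604 bp of exons, but a canonical transcript of 2833 bp. With the canonical length, STK4 had 38.1 TPM, above TEAD3, LATS1, LATS2 and WWTR1, and STK3 had 16.5 TPM, above LATS2 and WWTR1. STK3 and STK4 together then had 54.6 TPM, against 31.7 TPM for LATS1 and LATS2, so that the order of the kinase pairs was turned round. With the longest transcript, they had 48.4 against 39.5 TPM. Under both of these lengths, STK4 took the place of LATS1 among the 6 genes of the high class. The STK4 to STK3 ratio fell from 3.96 fold, as a ratio of mean levels, to 2.32 fold with the canonical length. TEAD2, YAP1, TEAD4 and TEAD1 kept places 1 to 4 under all 3 lengths. Which transcripts were made was not measured by these counts, so the length of the kinase transcripts, and with it their level, is uncertain to this extent.

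**Figure D3:**
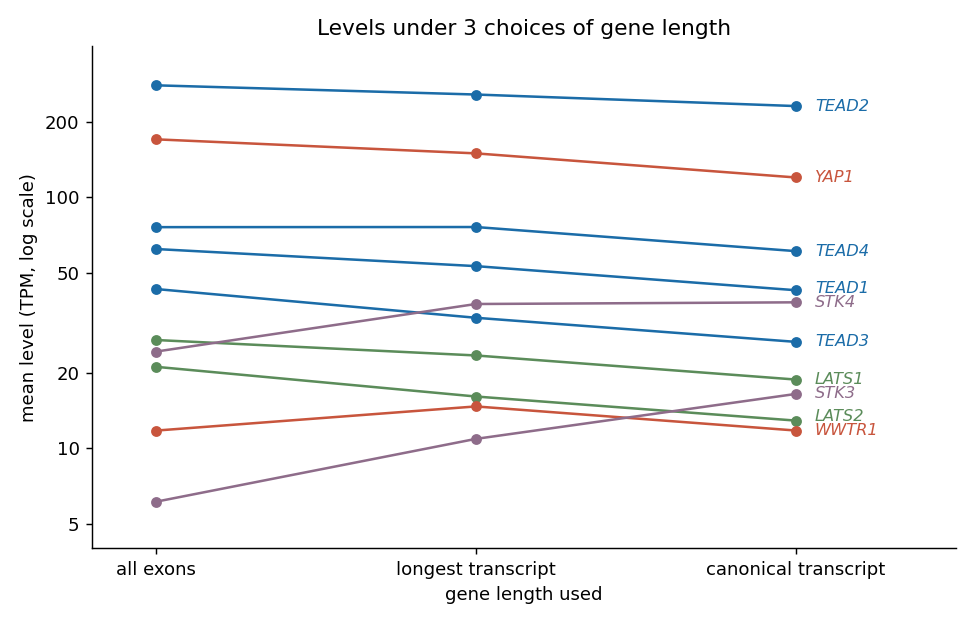
Mean TPM of the 10 genes on a log scale when reads were divided by the length of all exons, of the longest transcript or of the canonical transcript. The lines of STK4 and STK3 rose, to 38.1 and 16.5 TPM with the canonical length, and crossed those of LATS1 and TEAD3 for STK4 and of LATS2 and WWTR1 for STK3, while TEAD2 and YAP1 stayed on top.

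With all exons as the length, the order of the 10 genes was TEAD2, YAP1, TEAD4, TEAD1, TEAD3, LATS1, STK4, LATS2, WWTR1 and STK3. Each of the 9 neighbor pairs in this order had the same sign in 3 of 3 replicates and means that differed by more than the larger SD. The narrowest gap was between LATS1 and STK4, at 2.71 TPM against a larger SD of 1.199 TPM, and both lengths other than all exons reversed it. In CPM, over all 10 genes, YAP1 was first, at 271 ± 7.99 (n = 3), ahead of TEAD2 at 210.1 ± 1.87, and TEAD1 at 168 ± 10.04 was ahead of STK4 at 102 ± 3.85. A difference in reads between genes is partly a difference in length, so the order of levels is taken from TPM.

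**Figure D4:**
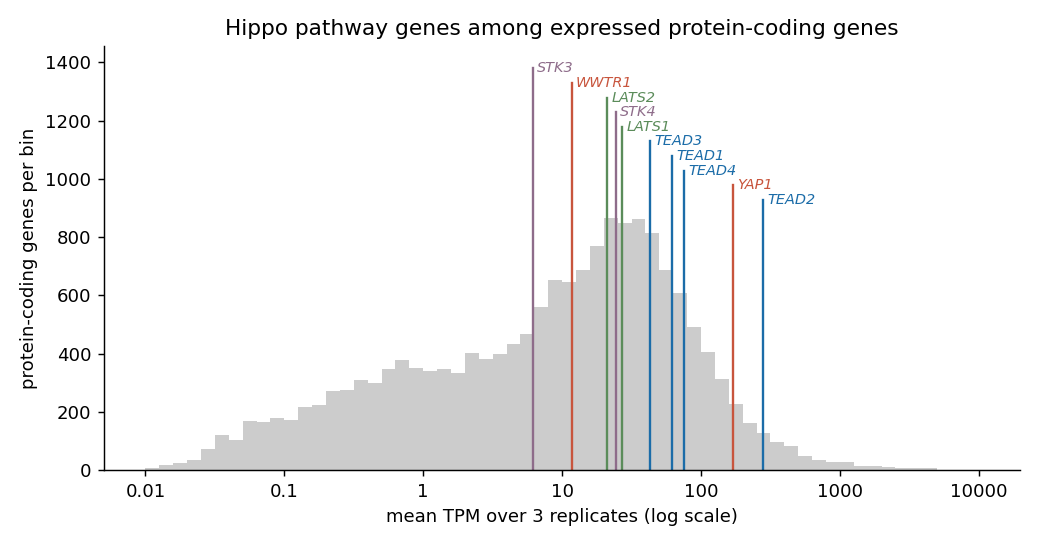
Number of protein-coding genes per bin of mean TPM, on a log scale, for genes at or above 0.01 TPM, with the mean of each of the 10 genes as a line. The lines run from STK3, at 6.13 TPM, to TEAD2, at 279 TPM, and 9 of the 10 lie above the median of all protein-coding genes.

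The replicates varied little for these genes. The coefficient of variation (CV, the SD as a percentage of the mean) ranged from 0.593% for TEAD2 to 12.3% for STK3, with a median of 5.88%. Over the 9727 protein-coding genes within the same range of levels the median CV was 5.96%, with quartiles of 3.69% and 9.43%. Counting error alone gives about 7.01% at the mean read number of STK3 and 2.14% at that of TEAD2, and an SD over 3 replicates is itself imprecise. Replicate 3 was below the mean of the others for 7 of the 10 genes, on the log2 CPM scale, and above it for 3. Over the protein-coding genes within the same range of levels, this difference had a median of 0.0033 and an SD of 0.196. Of the 10 genes, TEAD1 had the most negative log2 difference, at -0.15, and LATS2 the most positive, at 0.20. The GC content of the canonical transcript was 43.0% in TEAD1 and 51.8% in LATS2. TEAD4, the most GC-rich at 60.4%, had a difference of -0.05, and TEAD3 and TEAD2, at 59.8% and 58.1%, had differences of 0.0047 and 0.018. STK3, the least GC-rich at 38.4%, had a difference of -0.0012. Across the 9727 genes, which are not independent replicates, Spearman's rho between this difference and GC content was 0.435, and its part in the values of single genes was not tested.

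The cells carried the transcripts that mark pluripotent stem cells. All 8 pluripotency markers examined were in the high class, with a summed level between 6840 and 7055 TPM in each replicate. Over all protein-coding genes, 28.8% were in that class, and 65.1% reached 1 TPM in every replicate. Of 8 markers of trophectoderm or amnion, 3 reached 1 TPM in every replicate, namely KRT7 at 6.70 TPM, GATA3 at 1.67 TPM and GATA2 at 1.37 TPM. The summed level of this list was between 8.93 and 12.4 TPM, and CDX2, a marker of trophectoderm, had no read. Endoderm markers summed to between 39.4 and 54.7 TPM with 5 of 6 at 1 TPM in every replicate, led by CER1 at 34.7 TPM. Mesoderm markers summed to between 27.8 and 41.5 TPM with 4 of 6, led by MIXL1 at 22.3 TPM. Neuroectoderm markers summed to between 399 and 455 TPM with 5 of 6, most of it NES, followed by OTX2 at 81.5 TPM. For fibroblast markers the sum was between 181 and 198 TPM with 4 of 6, most of it THY1. COL1A2 at 25.6 TPM and COL1A1 at 14.6 TPM came next. Pluripotent stem cells are known to express NES and THY1, and which cells the marker transcripts came from was not tested. In bulk RNA, fewer cells with a transcript and less of it per cell cannot be told apart.

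The other genes of the pathway were described from 8 lists with 93 genes beside the 10 above. Of these, 84 were at or above 1 TPM in every replicate, against 65.1% of all protein-coding genes, and their median level was 26.9 TPM. These counts and medians are descriptions, and nothing was tested between lists.

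Cofactors of the kinases were all present. Among all protein-coding genes, 65.1% were at or above 1 TPM in every replicate, as were all 9 genes on this list. The 9 genes had a median of 53.6 TPM. In the high class were 8 of them, against 28.8% of all protein-coding genes. MOB1A, a partner that activates LATS kinases, had 105 ± 2.01 TPM. NF2, which encodes the membrane scaffold merlin, had 84.3 ± 1.01 TPM, and WWC2, of the KIBRA family, had 69.0 ± 4.38 TPM. Kinases that can phosphorylate LATS in place of MST were transcribed as well. Of 10 upstream kinases all were at or above 1 TPM in every replicate, with a median of 34.9 TPM, led by MAP4K4 at 141 ± 6.68 TPM, MAP4K3 at 80.1 ± 3.16 TPM and TNIK at 78.1 ± 7.57 TPM.

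Proteins that oppose or hold components of the pathway were also transcribed. The counts of their genes stand beside 65.1% of all protein-coding genes, which reached 1 TPM in every replicate. All 12 genes of STRIPAK, a phosphatase complex that removes activating phosphates from MST kinases, reached 1 TPM in every replicate, with PPP2R1A at 156 ± 2.70 TPM, PPP2CA at 128 ± 8.85 TPM and SIKE1 at 68.6 ± 5.57 TPM as the highest. Among the 16 binders of YAP, TAZ or LATS, which reached 1 TPM without exception, the 14-3-3 genes YWHAE, YWHAQ and YWHAG were highest, at 1109 ± 43.1, 901 ± 53.2 and 584 ± 37.96 TPM. Proteins of the 14-3-3 family hold phosphorylated YAP in the cytoplasm and have many other partners. Copies of these genes elsewhere in the genome were not examined. Of 17 genes for adhesion and polarity inputs, 14 reached 1 TPM in every replicate. FAT1, a large protocadherin, had 133 ± 7.24 TPM, and the polarity genes LLGL1 and PARD3 had 80.6 ± 8.90 and 66.6 ± 3.73 TPM. The lowest on this list were DCHS2, at 0.130 ± 0.0527 TPM, and CRB1, at 0.0510 ± 0.0203 TPM, from 17 and 5 reads over the replicates.

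RASSF proteins bind MST kinases through a shared domain. Of 6 RASSF genes, 4 reached 1 TPM in every replicate, or 66.7%, close to the 65.1% of all protein-coding genes. RASSF3 led with 74.7 ± 3.50 TPM, ahead of RASSF2 at 18.0 ± 2.08 TPM and RASSF1 at 7.16 ± 1.48 TPM, while RASSF5 and RASSF6 had 0.770 ± 0.158 and 0.312 ± 0.0547 TPM. VGLL proteins bind TEAD factors at the surface that YAP also uses. VGLL4, known as a repressor of TEAD activity, had 37.9 ± 2.38 TPM, and VGLL3 had 14.3 ± 1.53 TPM. VGLL1, known from trophoblast, had 2 reads over the replicates, and VGLL2 had none, which allows up to 3 counts.

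**Figure D5:**
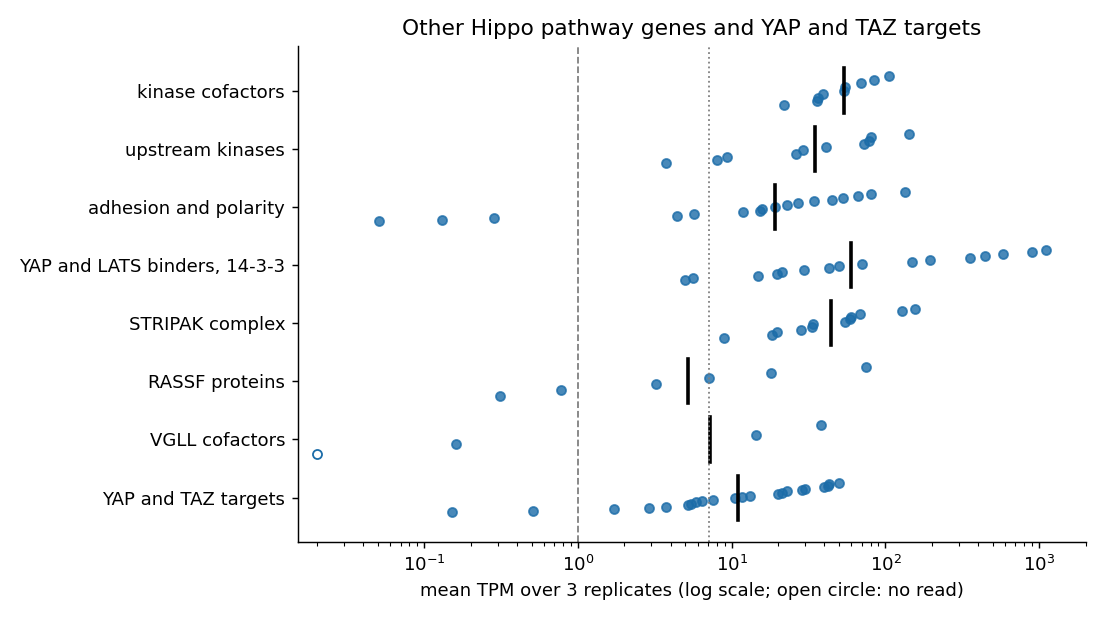
Mean TPM over 3 replicates of each gene on 8 pathway lists, on a log scale, with the median of each list as a bar, 1 TPM as a dashed line, the median of protein-coding genes as a dotted line and a gene without reads as an open circle. The medians of the kinase cofactors and of the YAP and LATS binders were above 50 TPM, while that of the targets was 11.04 TPM.

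Of 22 genes in a commonly used signature of YAP and TAZ targets, 20 reached 1 TPM in every replicate, against 65.1% of all protein-coding genes. The median level of the 22 was 11.04 TPM, against 7.10 TPM over all protein-coding genes. In the high class were 6 of the 22, or 27.3%, and the share over protein-coding genes was 28.8%. The highest were AMOTL2, a binder of YAP that is also its target, at 49.6 ± 0.318 TPM, the phosphatase gene PTPN14 at 42.8 ± 4.16 TPM, and CCN2, which encodes a matrix-associated growth factor long known as CTGF, at 42.5 ± 2.38 TPM. CCN1, its relative known as CYR61, had 29.8 ± 3.04 TPM, from 275, 372 and 226 reads. ANKRD1, a gene often used to read out YAP activity, had 27, 33 and 29 reads, or 6.40 ± 0.797 TPM. The lowest were NT5E, at 0.508 ± 0.262 TPM, and FOXF2, with 3 reads over the replicates. A level in 1 condition does not show how much of it depends on YAP.

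TEAD factors bind the letters GGAATG, read as CATTCC on the other strand. The promoters of RefSeq (GRCh38.p14), from 250 bases before to 50 after each start, were searched for these letters on both strands. A promoter was in the table for 7 of the 10 genes and for 16 of the 22 targets, and the other genes were not searched. The letters occurred in 9 of these 16 targets, in 2 of the 7 pathway genes, YAP1 and LATS2, in 15.6% of the 15251 protein-coding genes in the table and in 14.03% of all its promoters. Genes with several promoters had more chances of a match. LATS2 is counted on both sides, being a member and a target. Stretches around the matches are shown for the pathway genes and for 3 of the targets, with the matching letters in capitals. Matches in PTPN14 and FOXF2, which are also named above, are not shown. AMOTL2 had its match in promoter entry 2 and none in entry 1. The match of LATS2 lay after the start, at offset 9, and those of the other genes shown lay before it.
YAP1, chr11:102110273-102110302, plus strand: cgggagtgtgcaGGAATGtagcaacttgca
LATS2, chr13:21061560-21061589, minus strand: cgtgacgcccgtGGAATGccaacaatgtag
AMOTL2, chr3:134374499-134374528, minus strand: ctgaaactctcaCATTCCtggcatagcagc
CCN2, chr6:131951450-131951553, minus strand: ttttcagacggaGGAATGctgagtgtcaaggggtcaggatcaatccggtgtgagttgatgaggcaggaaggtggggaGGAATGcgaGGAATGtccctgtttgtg
ANKRD1, chr10:90921198-90921319, minus strand: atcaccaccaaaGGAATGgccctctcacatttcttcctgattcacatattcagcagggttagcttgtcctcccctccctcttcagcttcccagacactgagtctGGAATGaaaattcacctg
CCN2 had 3 matches, a number reached by 0.128% of the 35116 promoters in the table. ANKRD1 had 2, as did another of the targets, and this number was reached or passed by 1.37%. A match is a description of the sequence and no site of binding, and binding was not measured here.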

How the data were processed

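The authors trimmed the reads with Trim Galore (version 0.4.4), aligned them to GRCh38 with TopHat2 (version 2.1.1) and deposited, for each of 3 replicates, raw counts of reads per gene without normalization. For the counting tool, its annotation and its strand setting, the sources used here state nothing. The study computed its own TPM with Cufflinks (version 2.2.1), which was not used here. Identifiers were matched to the gene models of GENCODE 44, which held 56948 of them. TPM was computed over matched genes from the union of exons. Nonexpressed genes had a mean below 0.01 TPM, and the other protein-coding genes were divided into 3 quantiles. The cutoff and the 3 quantiles follow the methods of the paper, which state no limit of the quantiles to protein-coding genes.

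The genes described and the pathway lists were chosen with earlier results of these data known. The genes named were the 10 pathway genes, the 3 highest of each list and the 2 lowest of those below 1 TPM in every replicate, and CCN1, CCN2 and ANKRD1. CD37 and the other overlapping genes, and the single marker genes of cell types, were named for a value beside a result, after their values were seen. No gene was named for a like pattern, since 1 condition holds none. There were no groups to compare and no test was run. The lengths, units, rescaling by factors of edgeR (version 4.0.16) and DESeq2 (version 1.42.0), filters, thinning and omitted replicates tried as alternatives were listed in advance, and the addition of opposite-strand reads was chosen after seeing the data. The calculation was tested on counts simulated with the same gene lengths, which cannot show errors from transcript length, strand or shared reads. Calculations used R 4.3.3 and Python 3.11.15 with scipy 1.17.1, pandas 2.3.3 and numpy 2.4.6. Intervals are at 95% and cover counting error only.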

Additional observations from a re-analysis of the deposited data

How the results depend on the processing

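The order of the 10 mean levels was kept under rescaling by TMM or DESeq2 factors, without mitochondrial genes, without genes under 10 reads, with the counts thinned to 10%, with opposite-strand reads added and without each replicate, and it changed with the longest transcript, the canonical transcript and CPM. The number of genes in the high class was 5 or 6 under all of these. It was 9 when all genes, and not only protein-coding genes, were classified. The share of protein-coding genes in the high class under that setting is not given here, so the 9 has no background beside it. The median level of 35.0 TPM was 32.3 TPM with the canonical length and 50.9 as CPM, and 34.1 to 35.5 TPM with 1 replicate left out. The TEAD1 share was 12.7%, 11.8%, 36.9% and 12.01% with the longest transcript, the canonical transcript, CPM and opposite-strand reads. For TEAD2, the last 3 of these gave 63.9%, 46.2% and 64.98%. TEAD3 had 7.91%, 7.36%, 7.30% and 8.33% under the same 4 settings. TEAD4 had 18.2% with the longest transcript, 9.602% as CPM, 14.7% with opposite-strand reads and 15.7% with thinned counts. With 1 replicate left out, the shares were 13.3% to 13.9% for TEAD1, 60.1% to 60.9% for TEAD2, 9.10% to 9.68% for TEAD3 and 16.1% to 16.8% for TEAD4. The log2 ratio of YAP1 to WWTR1, 3.86, was 3.35 with either other length, 3.45 as CPM and 3.96 with opposite-strand reads. For LATS1 to LATS2 it was 0.55 with either other length and 0.95 as CPM, against 0.36. For STK4 to STK3 it was 1.22 with the canonical length and 2.39 as CPM, against 1.99. Without 1 replicate these ratios were 3.80 to 3.91, 0.29 to 0.44 and 1.87 to 2.08. Lengths, and the reads added, enter these values by construction, and for thinning the cause was not tested. At 10 TPM, 2 of the RASSF genes and 12 of the targets passed in every replicate, and the other lists stayed within 1.5 times their counts. The share of all protein-coding genes that passed at 10 TPM is not given here. Of the 10 single levels, the longest transcript moved 9 by more than the SD (3 higher and 6 lower) and the canonical transcript 9 (2 higher and 7 lower). Depth limits STK3 most, with 611 reads in all. No paired analysis was possible because all libraries belong to 1 group.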
